A study of Mus musculus with 96 samples.

Results

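The genes of the mouse major histocompatibility complex (MHC) and of antigen processing were taken as every gene whose symbol starts with H2-, together with B2m, Tap1, Tap2, Tapbp, Psmb8, Psmb9, Psmb10, Ciita, Cd74 and Nlrc5. The rule used names and no measured value, but was chosen with earlier results of these data known. By it, 55 of the 37945 genes in the data were members: 45 named H2- and 10 others. They were measured by sequencing total RNA of cultured osteoblasts from 42 strains of the Collaborative Cross, inbred mouse strains bred as a panel from several founder strains, each carrying its own mosaic of founder genomes. Cells came from the skull caps (calvaria) of pups aged 3 to 5 days, grew for 48 h and then differentiated for 10 days with added ascorbic acid and beta-glycerol phosphate; all strains had this treatment and none carried a transgene or drug named in the labels. There were 95 independent libraries: 2 for each of 31 strains, 3 for each of 2, 4 for each of 6, and a single one for CC011, CC024 and CC035. Nothing in the labels tells whether libraries of 1 strain are separate animals or cultures, and the p-values reflect only the spread among them, which may be technical.

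Class I molecules carry peptides made inside the cell to its surface, where T cells and natural killer cells read them. Their heavy chains are encoded by the H2-K and H2-D genes and by the less variable Q, T and M genes, and they pair with beta-2 microglobulin (B2m). The immunoproteasome subunits Psmb8, Psmb9 and Psmb10 cut the peptides, the transporter Tap1/Tap2 moves them into the endoplasmic reticulum, and tapasin (Tapbp) helps to load them. Class II molecules, built from A and E chains, present taken-up proteins and are best known from dendritic cells, B cells and macrophages; the invariant chain Cd74 and the DM and O molecules guide their loading. Nlrc5 and Ciita are the coactivators of class I and class II genes, and interferon gamma is the best known signal that raises both classes.

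Promoter windows from RefSeq (250 bases before to 50 after the annotated start, GRCm38.p6) were found for 38 of the 55 genes, in 41 windows. The ones below are shown because H2-K1 and H2-D1 have alike promoters and differed in which strains were low, because 1 stretch serves Tap1 and its divergently transcribed neighbour Psmb9, and because B2m and H2-Aa stand for the light chain and class II. Capitals mark the letters GGGATTCCC, CTGATTGG, GAAANNGAA and TGACG on either strand.
H2-K1, chr17:34000298-34000597, minus strand: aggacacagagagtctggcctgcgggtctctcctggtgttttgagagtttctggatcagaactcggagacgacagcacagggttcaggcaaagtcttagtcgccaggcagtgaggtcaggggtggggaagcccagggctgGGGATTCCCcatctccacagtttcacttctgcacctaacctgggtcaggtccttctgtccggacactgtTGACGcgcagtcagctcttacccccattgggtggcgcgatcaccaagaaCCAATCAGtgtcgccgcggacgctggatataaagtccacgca
H2-D1, chr17:35262844-35263143, plus strand: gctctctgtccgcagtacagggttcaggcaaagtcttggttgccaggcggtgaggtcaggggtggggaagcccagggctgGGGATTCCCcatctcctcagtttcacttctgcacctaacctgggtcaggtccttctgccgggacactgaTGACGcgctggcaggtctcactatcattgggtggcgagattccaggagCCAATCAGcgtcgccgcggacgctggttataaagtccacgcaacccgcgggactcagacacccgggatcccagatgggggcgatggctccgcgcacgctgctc
Tap1, chr17:34187306-34187605, plus strand: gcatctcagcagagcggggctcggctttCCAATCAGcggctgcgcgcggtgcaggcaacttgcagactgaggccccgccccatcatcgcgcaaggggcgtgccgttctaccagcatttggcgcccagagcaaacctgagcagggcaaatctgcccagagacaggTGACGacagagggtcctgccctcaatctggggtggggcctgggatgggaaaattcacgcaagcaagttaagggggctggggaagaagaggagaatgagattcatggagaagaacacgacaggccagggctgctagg
B2m, chr2:122147437-122147736, plus strand: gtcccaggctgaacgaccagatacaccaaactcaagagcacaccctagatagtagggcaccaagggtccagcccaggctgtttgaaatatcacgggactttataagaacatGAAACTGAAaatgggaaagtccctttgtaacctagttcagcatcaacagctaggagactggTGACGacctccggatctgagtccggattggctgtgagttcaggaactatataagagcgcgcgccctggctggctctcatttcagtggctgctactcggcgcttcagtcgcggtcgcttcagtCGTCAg
H2-Aa, chr17:34287774-34288073, minus strand: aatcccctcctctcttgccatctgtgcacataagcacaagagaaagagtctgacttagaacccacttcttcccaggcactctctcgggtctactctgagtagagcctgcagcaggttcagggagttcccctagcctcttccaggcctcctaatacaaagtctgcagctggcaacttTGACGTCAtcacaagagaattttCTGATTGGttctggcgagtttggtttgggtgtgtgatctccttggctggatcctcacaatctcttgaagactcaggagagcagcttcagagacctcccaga

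The H2-K1 and H2-D1 windows were identical at 206 of 228 aligned bases (90.4%). The Tap1 and Psmb9 windows shared 275 of their 300 bases. GGGATTCCC, a form of the site bound by NF-kappaB, was found in 0.353% of all 32851 windows and in those of H2-K1, H2-D1, H2-Q6 and H2-Q7. CTGATTGG, a form of the Y box of MHC promoters, was found in 4.1% of windows and in those of 20 members, among them H2-K1, H2-D1, H2-Q6, H2-Q7, H2-T23, H2-Aa, Psmb9 and Tap1. GAAANNGAA, a form of the interferon-stimulated response element, was found in 8.56% of windows and in those of B2m, H2-T23 and H2-T22. TTCNNNGAA, a form of the interferon gamma activated site, was found in 8.3% of windows and in those of Psmb8, H2-M3, H2-DMb2 and H2-M11. TGACG, the core of the cyclic AMP response element, was found in 20.8% of windows and in those of 15 members. These are matches of letters and not measured binding.

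Values are scaled TPM, the deposited TPM (a length-corrected share of all transcripts) of each gene divided by a scaling factor per library. TPM is corrected for transcript length, so levels can be set side by side between genes, but it keeps no read depth. The cultures had the markers of osteoblasts: Col1a1, the main collagen chain of bone, had a median of 2387 scaled TPM over libraries and Alpl, alkaline phosphatase, 173.4. Both differed between strains. Alpl stood at 44.9 ± 35.5 (SD, n = 2) in CC030 and 312 ± 6.98 (n = 2) in CC019. Col1a1 stood at 1014 ± 424 (n = 2) in CC013 and 4741 ± 5.93 (n = 2) in CC061. Of the marker lists of other immune cells, 5 of 8 dendritic cell, 7 of 8 B cell and 6 of 8 T and natural killer cell genes were too low to be tested, with Flt3 at 0 in 93, Ms4a1 in 82 and Cd3e in 93 of 95 libraries. The rest were measured and differed between strains: Zbtb46 had a median of 0.999, Itgax 0.402 (up to 9.51), Batf3 0.204, Blnk 1.14 (up to 9.04), Cd4 0.162 (up to 4.31) and Lck 0.693. The summed lists ran from 1.05 to 11.5 for dendritic cells, 0.0973 to 9.14 for B cells and 0.135 to 4.61 for T and natural killer cells. Among replicated strains Itgax, Blnk and Cd4 were highest in CC030, Zbtb46 in CC016, Batf3 in CC028 and Lck in CC032. The strain mean of the summed dendritic cell list was highest in CC032 (10.1). Those of the B cell and the T and natural killer cell lists were highest in CC030 (8.05 and 3.59). The part of such cells in the results was not tested. Macrophage markers were present and varied widely: the 14 macrophage genes summed to 28.9 scaled TPM in the lowest library, 398 in the median and 4930 in the highest. In such bulk samples fewer cells of a type and less RNA per cell cannot be told apart.

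All 30 members that reached 0.5 TPM in at least 2 libraries (21 H2 genes and 9 others) differed between strains by limma's moderated F test over 39 strains with 2 or more libraries (largest adjusted p 0.00368, Benjamini-Hochberg over 15760 genes). Of all genes tested, 81.5% passed, so passing sets the members little apart. The size of the differences can be read from the distance from the lowest to the highest strain mean, whose median was 2.03 on the log2(scaled TPM + 0.5) scale for the members and 1.02 for all genes. The share of variance that lay between strains (the intraclass correlation) had a median of 0.717 for the members and 0.472 for all genes. It was 0.807 for the 21 tested H2 genes, counting H2-Ke6 (0.588), which was put in neither class I nor class II, and 0.603 for the other tested members. It exceeded 0.9 for 6 of 30 members, H2-T10, H2-Q2, H2-DMb1, H2-T22, H2-D1 and H2-Ab1, and for 352 of all genes (2.23%). The other 25 members stayed under that level, the highest at 0.482 TPM as deposited, and 6 were listed at 0 in every library.

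**Figure D1:**
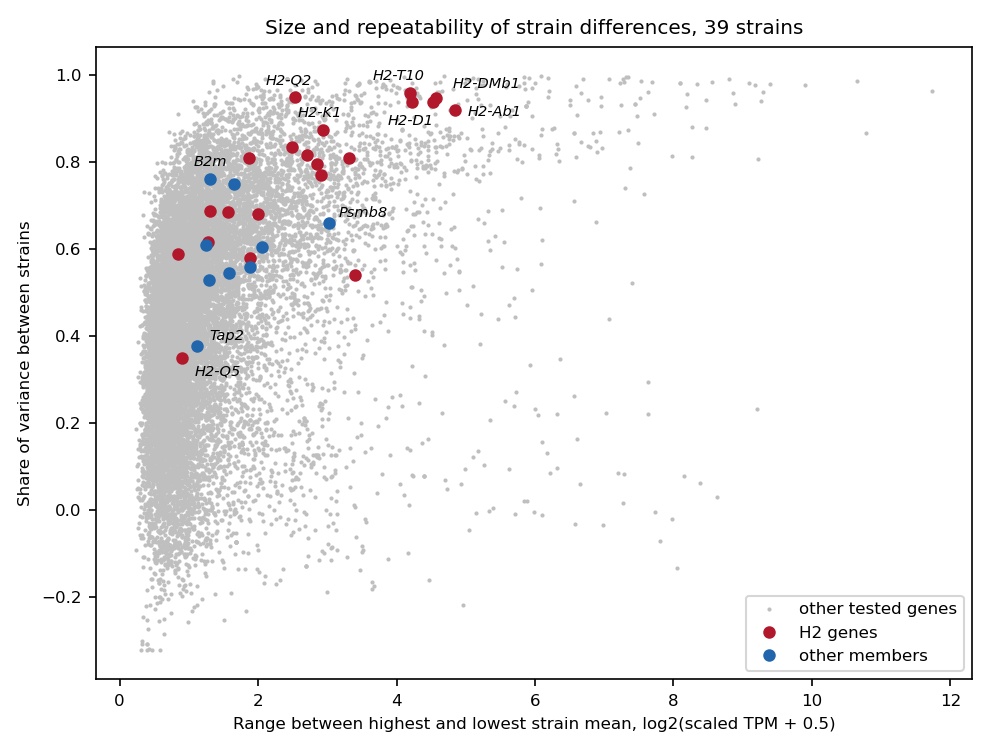
Share of variance between strains (vertical axis, no unit) against the distance from the lowest to the highest strain mean (horizontal axis, log2(scaled TPM + 0.5)) for each tested gene, with H2 genes in red, the other members in blue and all other genes in grey. The H2 genes H2-T10, H2-Q2, H2-DMb1, H2-T22, H2-D1 and H2-Ab1 lie above a share of 0.9.

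The classical class I genes were abundant in every strain, and most strains with the lowest levels of one had middling or high levels of the other. H2-K1 had a median of 71.3 scaled TPM over libraries (15.2 to 150) and H2-D1 a median of 67.7 (8.76 to 248). Both are classical heavy chain genes that present peptides to cytotoxic T cells. H2-K1 was lowest in CC005, at 17.3 and 15.2, and highest in CC055, at 122.9 and 131.8. These strain means had a 7.64-fold range on the log2(scaled TPM + 0.5) scale, which is used for all fold ranges. The F test over all replicated strains gave limma adjusted p 1.34e-18 for H2-K1. Separately, 12 strains were called higher and 9 lower than the mean of the others. Here and below, a limma adjusted p beside a lowest and a highest strain is from this F test over strains. It does not test that pair, which was picked from the data. H2-D1 was lowest in CC016, at 11.7 and 8.83, and highest in CC030, at 248 and 160, an 18.7-fold range (limma adjusted p 1.52e-26), with 16 strains called higher and 10 lower. In CC055, the strain with the most H2-K1, H2-D1 was at 21.7 and 23.8, and in CC005, the strain with the least H2-K1, H2-D1 was at 46.3 and 40.0. CC013 was low in both, with H2-K1 at 28.0 and 26.7 and H2-D1 at 22.1 and 20.4, and it had the lowest sum of K and D genes among strains with replicates (48.6 ± 2.11, SD, n = 2, against 272 ± 64.5, n = 2, in CC030). The ratio of H2-K1 to H2-D1 strain means ran from 0.326 in CC030 to 6.72 in CC015, with H2-K1 higher in 22 strains and H2-D1 in 20. H2-K2, a transcribed pseudogene, was near 0 in most libraries and reached 0.702 and 1.32 in CC030.

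H2-D1 fell into separate levels. In 6 strains (CC012, CC015, CC016, CC019, CC035 and CC053) its strain means lay between 8.76 and 12.9 scaled TPM, and in the other 36 between 21.3 and 204. No library of the low set (highest 13.2) reached the lowest library of the others (20.5). These 6 strains are described by the widest step in the data themselves, so no test is given for it. In the same 6 strains H2-K1 was between 56.0 and 74.8, in the middle of the range, and H2-Q6 was among the lowest 8 of the 42 strains (0.0539 to 0.189, median 0.133, against a median of 0.462 in the others). H2-K2 had a median of 0.0175 there and 0.117 in the others. The immunoproteasome subunit Psmb8 had a median of 5.16 in these strains and 10.6 in the others, with overlap of the ranges.

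**Figure D2:**
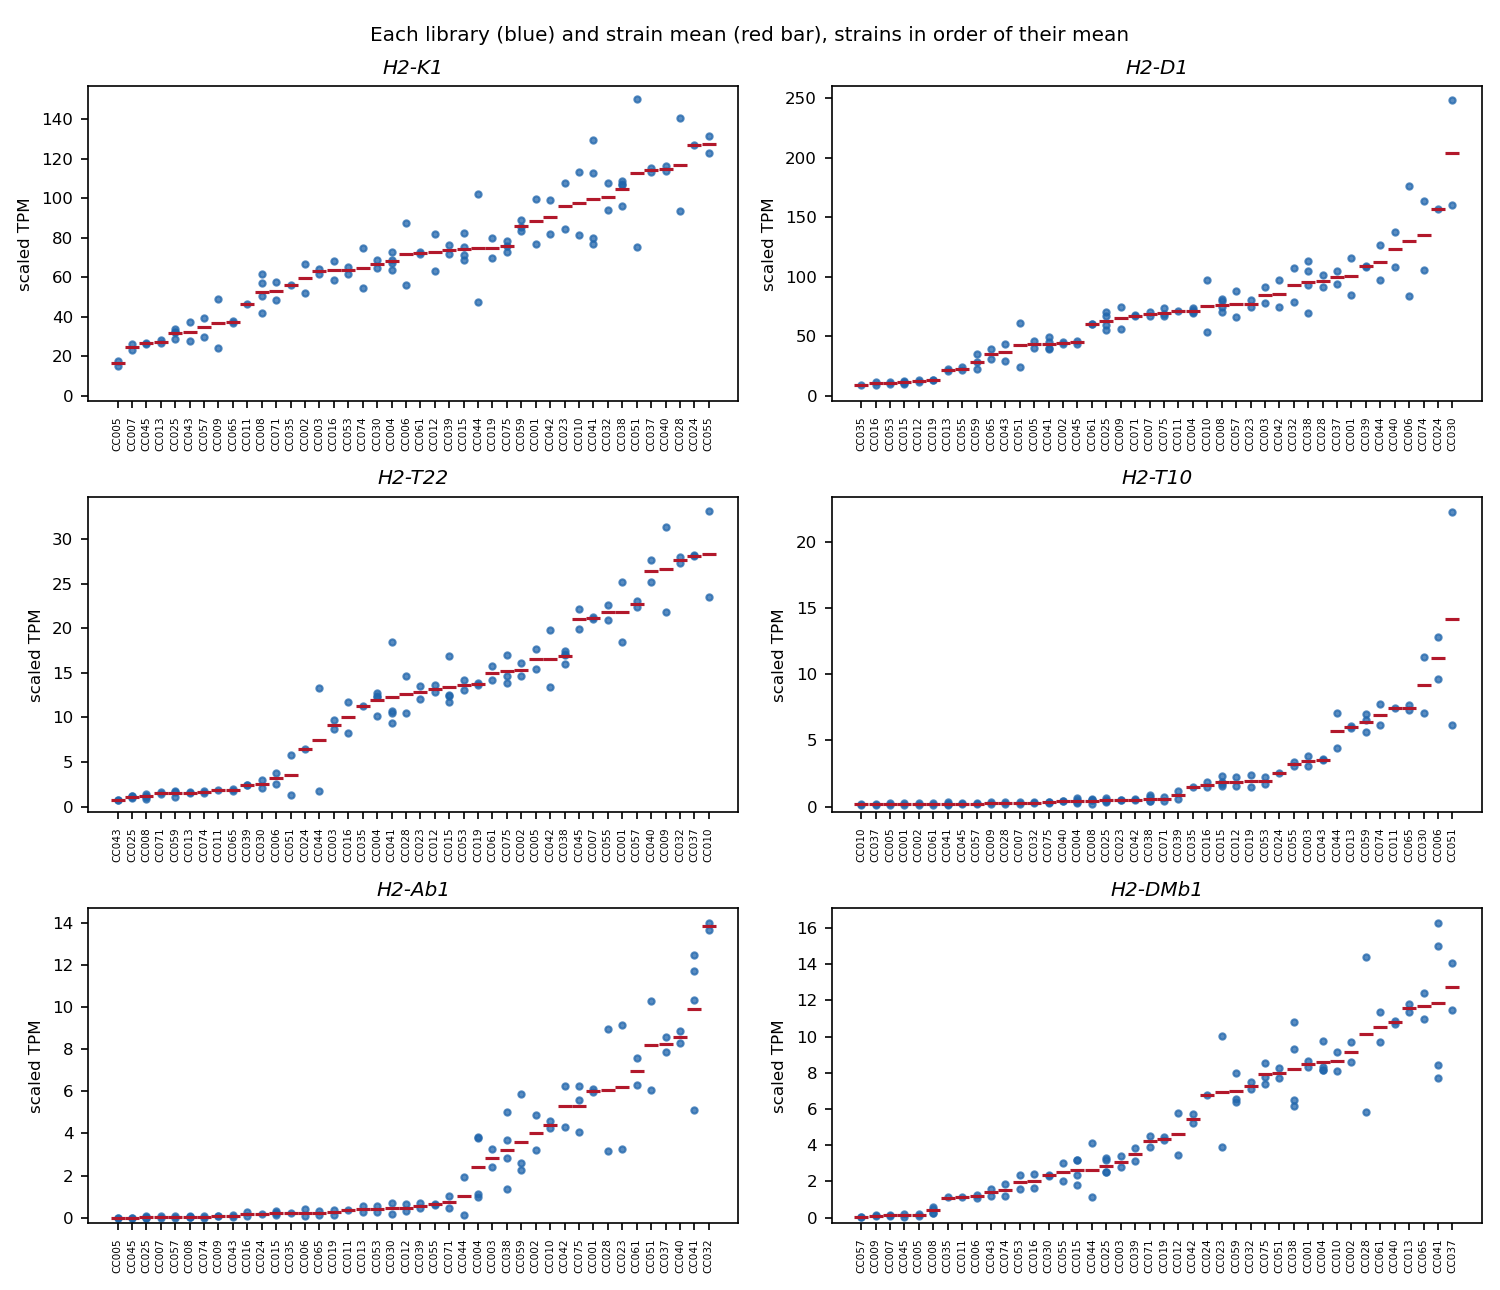
Scaled TPM (vertical axis, linear) of 6 H2 genes in each library (blue points) of 42 strains, ordered in each panel by the strain mean (red bar). H2-D1 has 6 strains below 12.9, H2-T22 has 13 strains at or below 3.55 and H2-DMb1 has 6 strains at or below 0.406, while H2-K1 rises without such a step.

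Class I genes of the Q region had lower measured levels and differed in which strains these were high. For all H2 genes reads were assigned to 1 reference, and how reads of strain-specific alleles were treated was not examined. The 8 Q genes summed to a median of 6.39 scaled TPM (2.36 to 31.3), against 133 for the K and D genes, and K and D genes held 74.5% of all class I heavy chain TPM in the median library (55.9% to 87.7%). H2-Q4 was the most abundant, with a median of 4.22 (0.926 to 21.97). It was lowest in CC005, at 0.937 and 1.03, and highest in CC030, at 12.9 and 15.8 (limma adjusted p 2.99e-14). CC006 had a higher arithmetic mean of H2-Q4 than CC030, but its libraries, at 8.45 and 21.97, differed more. H2-Q7, whose product is the Qa-2 antigen, was at 0 and 0.0149 in CC005 and at 3.00 and 3.30 in CC037 (limma adjusted p 1.25e-13). H2-Q2 was listed at 0 in 28 libraries, among them both of CC013, and stood at 2.16 and 2.65 in CC039 (limma adjusted p 3.67e-28). H2-Q10, known as a secreted class I molecule of liver, was at 0.108 and 0.0828 in CC065 and between 2.41 and 3.22 in the 4 CC038 libraries (limma adjusted p 1.32e-15). H2-Q6 ran from 0.0518 and 0.165 in CC016 to 1.32 and 2.75 in CC006. H2-Q5 was at most 0.908, and 72.8% of its TPM lay on a transcript annotated as a retained intron. Q genes share sequence: of the 50-base words of their transcripts, 25.5% of those of H2-Q5 and 13.9% of those of H2-Q6 also occur in H2-Q7, so that the authors' counting could move reads between them.

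Genes of the T region also held wide class I differences. H2-T22, a ligand of gamma delta T cells, had a median of 12.5 scaled TPM. It was at 0.771 and 0.714 in CC043 and at 28.1 and 28.2 in CC037, a 23.1-fold range (limma adjusted p 1.19e-26). CC010 was about as high as CC037, with libraries at 23.5 and 33.1. In 13 strains the H2-T22 means lay between 0.743 and 3.55, and in the other 29 between 6.49 and 28.3. The libraries of these sets overlapped through 1 library, replicate 2 of CC044, at 1.69 against 13.3 in replicate 1. The highest library of the low set was replicate 1 of CC051, at 5.79 against 1.31 in replicate 2. H2-T10, a near copy of it, was at 0.149 and 0.197 in CC010 and at 22.3 and 6.13 in CC051, an 18.3-fold range (limma adjusted p 7.28e-31). In 9 strains the H2-T10 means were between 5.74 and 14.2, and in the other 33 at most 3.55, with no overlap of libraries (3.84 against 4.40 at the edge). Of these 9 strains, 8 (88.9%) were among the 13 with low H2-T22, of which they made up 61.5%. The exception was CC044.

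Both T genes share 31.2% of the 50-base words of H2-T22, so a read could be given to either. Their sum ran from 1.58 ± 0.413 (SD, n = 4) in CC008 to 28.3 ± 0.154 (n = 2) in CC037, a 14.1-fold range. The share of variance between strains of this sum was 0.928. The part of shared reads in the level of each gene was not tested. H2-T10 was annotated mostly by a transcript called a polymorphic pseudogene, which held 78.6% of its TPM. In the 9 strains with high H2-T10, H2-T23 had a median of 9.90, against 21.7 in the others, and all 9 were among the lowest 12 strains for H2-T23.

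H2-T23, which encodes Qa-1, the ligand of the inhibitory NKG2A receptor, had a median of 19.8 scaled TPM and was the most abundant T gene. It stood at 4.42 and 6.24 in CC043, at 38.97 and 46.9 in CC055 and at 83.5 in the only library of CC024 (limma adjusted p 1.87e-12 over the replicated strains). H2-T24 followed a like order at its ends, with 0.145 and 0.267 in CC043, 6.50 and 7.36 in CC055 and 14.3 in CC024. The pseudogene H2-T-ps was highest in CC065 (6.75 and 5.01) and lowest in CC004 (0.183 to 0.773). H2-Bl was at a median of 0.110 and reached 1.19 and 1.54 in CC039. H2-M3, which presents formylated bacterial and mitochondrial peptides, had a median of 2.88 and a 3.65-fold range: all 4 CC041 libraries lay between 0.886 and 1.29 and both CC030 libraries at 5.48 and 5.41 (limma adjusted p 4.3e-14). The other M genes were at or near 0, and H2-M5 was the highest of them at 0.509 in 1 library. H2-T3, which encodes the TL antigen, was at 0 in 81 libraries.

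B2m was the most abundant member in every strain. Its median was 444 scaled TPM (253 to 964), which was 2.46 times the sum of all class I heavy chain genes in the median library (1.27 to 5.66). B2m stood at 253 and 293 in CC043, at 571 and 797 in CC006 and at 964 in the CC024 library. The range between replicated strains was 2.48-fold, where the median was 4.08-fold for the tested members and 2.03-fold for all genes. B2m passed the F test over strains (limma adjusted p 1.1e-11), with 10 strains called higher and 8 lower.

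The peptide-generating genes followed a graded order over strains. Psmb8, the immunoproteasome subunit LMP7, had a median of 9.38 scaled TPM and ran from 1.63 and 3.31 in CC016 to 18.2 and 27.9 in CC006, an 8.1-fold range (limma adjusted p 1.1e-08). Psmb9, or LMP2, had a median of 2.14 and ran from 0.772 and 0.804 in CC005 to 4.12 and 5.68 in CC006 (limma adjusted p 2.9e-07). The CC024 library had 7.44. Psmb10, or MECL-1, encoded outside the MHC, had a median of 11.1 and ran from 5.35 to 9.46 in the 4 CC041 libraries to 15.6 and 18.3 in CC006 (limma adjusted p 2.33e-07). These subunits replace Psmb5, Psmb6 and Psmb7 of the standard proteasome, and were less abundant than those in the median library: the ratio was 0.174 for Psmb8 to Psmb5, 0.019 for Psmb9 to Psmb6 and 0.21 for Psmb10 to Psmb7. The highest library ratios were 0.746, 0.0741 and 0.476.

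Tap1 ran from 4.07 to 5.27 scaled TPM in the 4 CC025 libraries to 12.0 and 11.8 in CC055 (limma adjusted p 1.02e-05). Tap2 ran from 3.39 to 6.52 in CC041 to 10.5 and 12.1 in CC030 (limma adjusted p 0.00156), and 78.2% of its TPM lay on a transcript annotated as a retained intron. Tapbp was the most abundant loading gene, with a median of 33.4. It stood between 13.7 and 33.4 in the CC041 libraries and at 56.1 and 60.5 in CC030 (limma adjusted p 4.33e-06). The CC041 libraries of Tapbp reached up to the median of all libraries, so that strain was not uniformly low. Replicate 1 of CC051 had the highest single value of Tapbp, 86.4, and its replicate 2 had 30.1.

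Nlrc5, the class I coactivator, was low, with a median of 0.401 scaled TPM. It stood between 0.0721 and 0.149 in the 4 CC008 libraries and at 1.44 and 1.47 in CC055 (limma adjusted p 2.62e-11). Ciita, the class II coactivator, was at a median of 0.0299 and at most 0.130 in any library, too low to be tested.

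Class II genes summed to less than class I heavy chain genes in every library and did not move as a unit. Over 42 strain means Pearson's r of H2-Ab1 was 0.744 (rho 0.774) with H2-DMb1 and -0.743 (rho -0.707) with H2-DMa. All 12 summed to a median of 9.39 scaled TPM (3.4 to 30.7), and class I heavy chain TPM was 18.5 times class II TPM in the median library (4.29 to 74.8). By medians over libraries, genes of the DM molecule, a peptide exchanger, were higher than the presenting chains: H2-DMb1 had 4.30 and H2-DMa 2.80, against 0.623 for H2-Ab1 and 0.134 for H2-Aa. The presenting chains were not low in every strain. The A and E genes summed to 14.0 ± 0.278 (SD, n = 2) in CC032, against 1.17 in the median library. H2-Eb1 was at most 0.391, H2-DMb2 at most 0.358, H2-Ob 0.262, H2-Oa 0.183 and H2-Eb2 0.0150, all too low to be tested.

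H2-Ab1, the A beta chain, was the member with the widest range on the log2 scale. It was listed at 0 in both libraries of CC005 and of CC045, and stood at 13.7 and 14.0 in CC032 (limma adjusted p 1.16e-23), with 15 strains called higher and 18 lower. Strain means of H2-Ab1 were at most 1.02 in 25 strains and at least 2.43 in the other 17. Its partner H2-Aa, the A alpha chain, did not follow: in CC032 it stood at 0.135 and 0.182. In CC041, where H2-Ab1 was between 5.10 and 12.5, the 4 libraries had at most 0.0886 of H2-Aa. H2-Aa was highest in CC071, at 0.970 and 0.578, where H2-Ab1 was at 1.03 and 0.445. No 50-base word of H2-Ab1 was found in another gene.

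H2-DMb1, the beta chain of DM, stood at 0.0536 and 0.0542 in CC057 and at 14.0 and 11.5 in CC037, a 23.8-fold range (limma adjusted p 5.01e-28). In CC005, CC007, CC008, CC009, CC045 and CC057 its strain means were between 0.0539 and 0.406, and in the other 36 strains between 1.11 and 12.8, with no overlap of libraries (0.599 against 1.08). H2-DMa, the alpha chain, showed no such step: it ran from 1.74 and 1.56 in CC001 to 4.27 and 5.40 in CC071 (limma adjusted p 2.98e-09). In the 6 strains with low H2-DMb1, H2-DMa had a median of 3.64, against 2.67 in the others. H2-DMb1 shares 22.7% of its 50-base words with H2-DMb2, and the sum of both had a range of 22.2-fold between the same strains.

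The 6 strains low in H2-DMb1 were also the low end of several other H2 genes. H2-Ab1 was at most 0.0596 in all of them, within the lowest 8 of 42 strains, and H2-Q7 was at most 0.0512, within the lowest 7 (median 0.0162 against 0.904). H2-K1 had a median of 30.5 against 74.1, and all 6 were within the lowest 11 strains. H2-Q4 had a median of 1.35 against 4.88. H2-D1 (66.8 against 70.5), B2m (454.4 against 477.5), Psmb8 (10.8 against 9.58) and Tap2 (8.24 against 7.89) had close medians in both sets, and H2-Q2 was higher in the 6 strains (0.616 against 0.0347). These strains were grouped by the data, so the values are a description without a test.

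**Figure D3:**
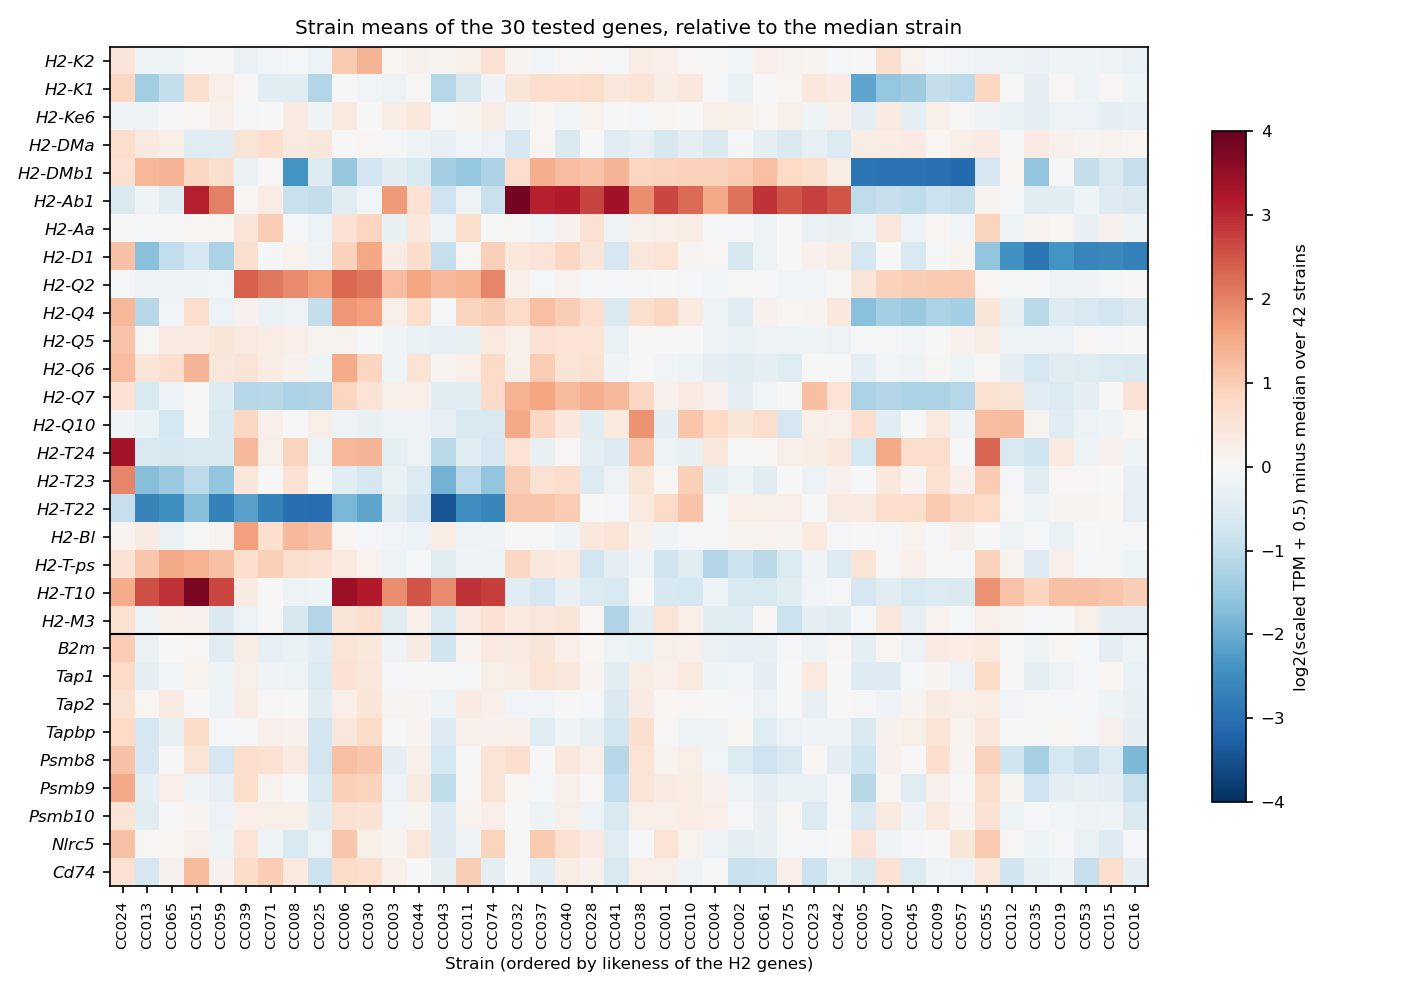
Strain means of the 30 tested genes as log2(scaled TPM + 0.5) minus the median over 42 strains (red higher, blue lower), with H2 genes above the line in their order on chromosome 17 and the other members below it, and strains ordered by likeness of the H2 genes. Blocks of strains share low H2-DMb1 (CC005, CC007, CC045, CC009, CC057), low H2-D1 (CC012, CC035, CC019, CC053, CC015, CC016) or low H2-T22 with high H2-T10 (for example CC013, CC065 and CC074), while the genes below the line change in paler, graded shades.

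Levels of the processing genes went together across strains, and those of the 14 H2 genes compared below much less. Over the 21 pairs among Psmb8, Psmb9, Psmb10, Tap1, Tap2, Tapbp and B2m, Pearson's r over 42 strain means ran from 0.533 to 0.857 with a median of 0.699. The titles of samples hold a number that the labels do not explain, and the median was 0.704 in 20 strains whose numbers lay 20 or more apart and 0.574 in 19 strains with numbers within 5. Psmb9 was closest to Psmb8 and to Psmb10 (r = 0.857 for each), and Psmb10 is encoded on chromosome 8 while Psmb8 and Psmb9 lie on chromosome 17. Tap1 and Psmb9, with the promoter stretch shown above, had r = 0.733 (rho 0.672, and 0.788 and 0.53 in those sets). B2m and Nlrc5 had r = 0.791 (rho 0.754, and 0.816 and 0.72 in those sets). The 6 H2 genes with a share of variance between strains over 0.9 and H2-Ke6 were left out of the H2 pairs. Pairs with these left-out genes ranged widely. H2-Ab1 had r = 0.744 with H2-DMb1, 0.665 with H2-K1 and -0.743 with H2-DMa, while H2-DMb1 had 0.0795 with H2-D1 and 0.0467 with H2-T22. Over the 91 pairs among the other 14 tested H2 genes the median r was 0.191, and 23 pairs were below 0. Among these H2 genes, H2-K2 (0.0814), H2-Bl (0.110), H2-Aa (0.134), H2-Q5 (0.134), H2-Q6 (0.378) and H2-Q10 (0.456) had library medians under 0.5 scaled TPM. The lowest of the processing genes, Psmb9, had 2.14. The part of low levels in this contrast was not tested. All these points share libraries and strains, so the values are descriptions.

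A score of 20 interferon response genes (mean z-score, no member among them) tracked the same genes. Its r over 42 strain means was 0.829 with Psmb8, 0.819 with B2m, 0.782 with Psmb9, 0.76 with Tap1, 0.73 with Psmb10, 0.699 with Nlrc5 and 0.659 with Tap2 and with Tapbp. Psmb8 had rho 0.804, r = 0.826 in strains with title numbers far apart and 0.748 in those with close numbers, and B2m rho 0.765, r = 0.838 and 0.815. Without the 2 strains farthest from the median score, r was 0.79 with Psmb8 and 0.774 with B2m. The sum of all class I heavy chain genes had r = 0.691 (rho 0.667) and the sum of K and D genes 0.593 (rho 0.589), while H2-K1 alone had 0.286. Among the 14 H2 genes of the 91 pairs above the median r was 0.425, from -0.0169 for H2-Bl to 0.651 for H2-T24. Genes in separate levels were read within levels: among the 13 strains with low H2-T22 its r with the interferon score was 0.91 (rho 0.863), among the 29 with high H2-T22 it was 0.406 (rho 0.607), and among the 36 strains above the step of H2-D1 that gene had r = 0.467. H2-DMb1 had r = 0.0172 among the 36 strains above its step and -0.506 among the 6 below it. For H2-D1 r was 0.834 among the 6 strains below its step. H2-T10 had r = 0.798 among the 9 strains above its step and -0.117 among the 33 below it. For H2-Q2 these values were 0.268 (15 strains) and 0.134 (27 strains), and for H2-Ab1 0.396 (17 strains) and 0.163 (25 strains).

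**Figure D4:**
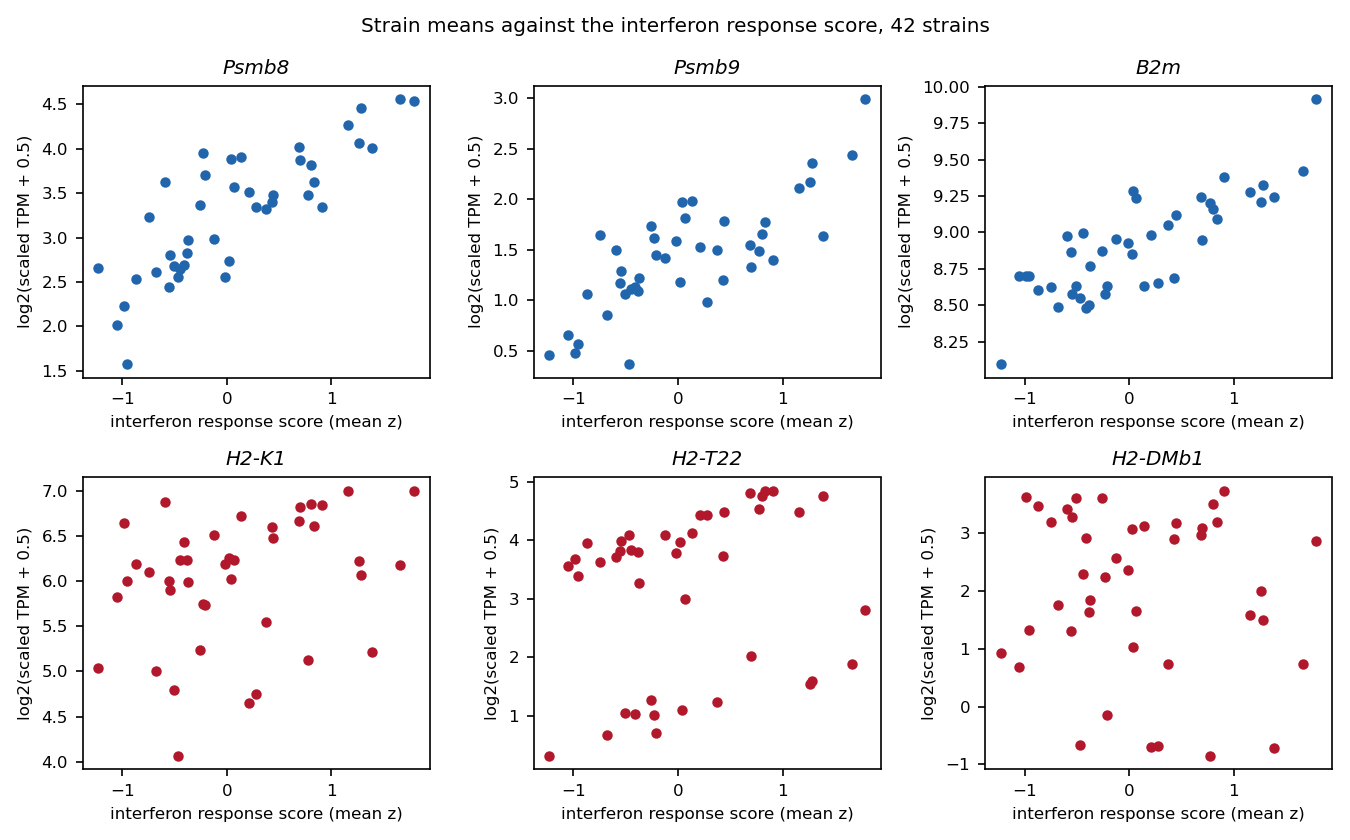
Strain means, as log2(scaled TPM + 0.5), against the interferon response score (mean z-score, no unit) for 3 processing genes (blue) and 3 H2 genes (red), 1 point per strain, 42 strains. Psmb8, Psmb9 and B2m rise with the score (r = 0.829, 0.782 and 0.819), H2-T22 forms an upper set of 29 and a lower set of 13 strains that each rise with it, and H2-DMb1 shows no such trend.

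Macrophage markers also moved with some members. The score of 14 macrophage genes had r = 0.694 with Psmb8, 0.661 with Psmb9, 0.638 with Psmb10, 0.598 with Cd74, 0.597 with H2-Aa and 0.4 with B2m over 42 strain means. Cd74, the invariant chain of class II, had a median of 1.01 scaled TPM and ran from 0.263 and 0.337 in CC053 to 5.15 and 1.05 in CC051 (limma adjusted p 2.56e-06). For Cd74 the r was 0.532 in strains with title numbers far apart and 0.72 in those with close numbers. Cd74 and H2-Aa followed each other (r = 0.722, rho 0.745). H2-Ab1 had r = 0.0861 with the macrophage score in the 17 strains with high levels and 0.328 (rho 0.316) in the 25 with low levels. H2-DMb1 had r = -0.145 in the 36 strains above its step and 0.462 (rho -0.0286) in the 6 below it. CC041, the strain with the lowest macrophage score (summed marker level 85.5 ± 42.5 scaled TPM, SD, n = 4, above the 44.1 ± 21.6, n = 2, of CC005), was the second highest of the 42 strains for H2-Ab1 and H2-DMb1. CC030, with the highest (3873 ± 1495, n = 2), had H2-Ab1 at 0.700 and 0.183. The part of macrophages in the levels of Psmb8, Psmb9, Psmb10, Cd74 and H2-Aa was not tested. A score of 11 osteoblast genes had r from -0.528 to -0.112 (median -0.407) with the 7 processing genes including B2m. With the 20 tested class I and class II H2 genes it had r from -0.486 to 0.412 (median -0.217). The part of osteoblasts in these levels was not tested either.

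**Figure D5:**
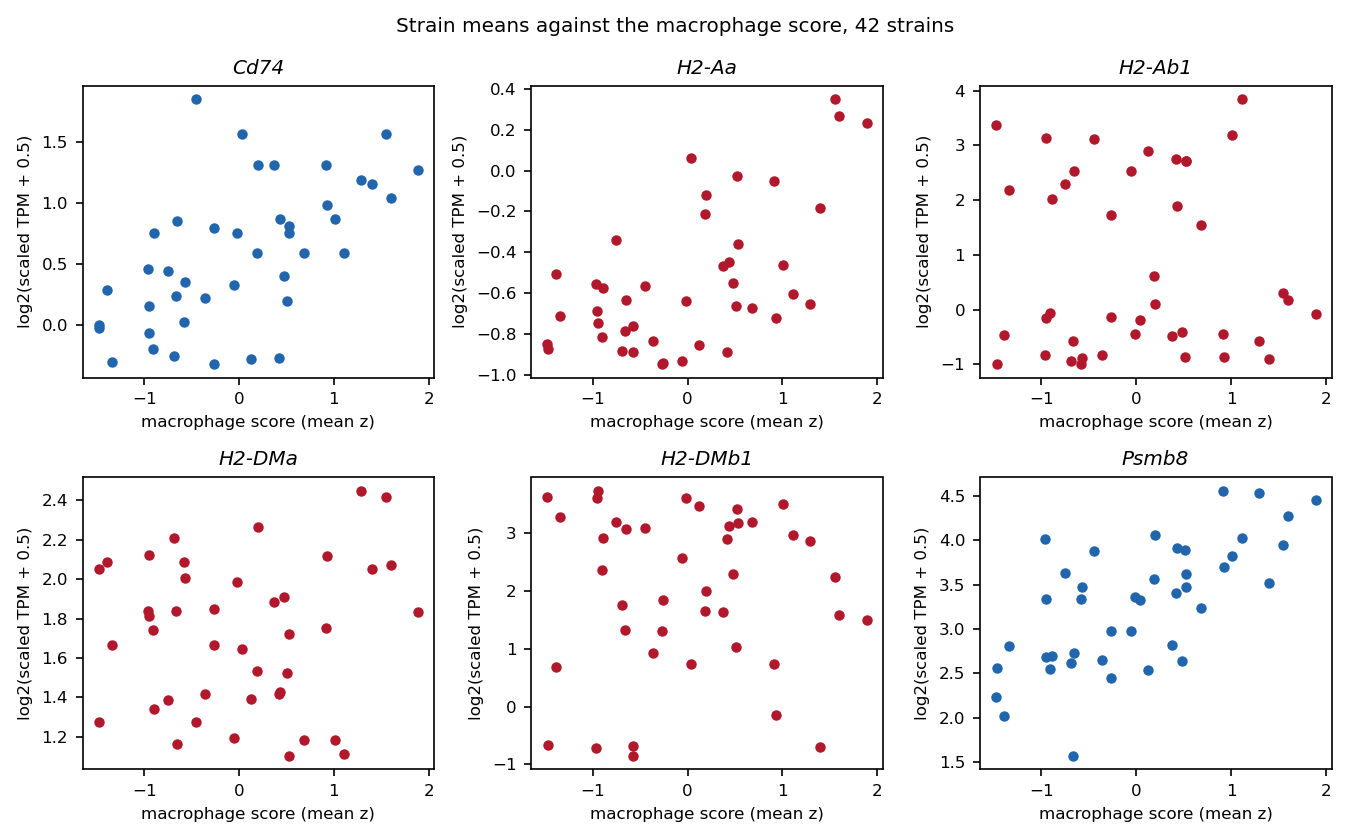
Strain means, as log2(scaled TPM + 0.5), against the macrophage score (mean z-score, no unit) for class II genes (red), Cd74 and Psmb8 (blue), 1 point per strain, 42 strains. Cd74 and H2-Aa rise with the score (r = 0.598 and 0.597), while H2-Ab1 has high and low strains at both low and high scores.

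Of 35 further genes of antigen presentation that are not members, 34 were tested and 33 differed between strains, where 81.5% of all genes did. Genes that handle proteins for class II had the widest differences. Ctss, cathepsin S, which trims the invariant chain, stood at 442.1 ± 18.5 scaled TPM (SD, n = 2) in CC030 and 5.17 ± 1.82 (n = 2) in CC005. Lgmn, the protease legumain, stood at 320 ± 61.5 in CC030 and 38.05 ± 5.53 in CC002 (n = 2 each). CC030 also had the highest summed level of the 14 macrophage genes (3873) and CC005 the lowest (44.1), and the part of macrophages in these values was not tested. All 11 genes of peptide supply and loading passed with small ranges. Erap1, the peptidase that trims class I peptides, ran from 5.40 ± 0.871 in CC043 to 12.6 ± 0.837 in CC074, and Calr, the chaperone calreticulin, from 379 ± 24.2 in CC037 to 834 ± 60.8 in CC074 (n = 2 each). Among MHC-like molecules encoded elsewhere, Cd1d1, which presents lipids, ran from 0.626 ± 0.202 (n = 2) in CC028 to 9.18 ± 2.11 (n = 4) in CC004. Fcgrt, the heavy chain of the neonatal Fc receptor, ran from 52.0 ± 10.6 in CC043 to 157 ± 12.7 in CC030 (n = 2 each). Of 12 transcription and interferon receptor genes 11 passed, and Nfyc, a subunit of the Y box factor, did not (limma adjusted p 0.0639). Ifngr1, a chain of the interferon gamma receptor, had a median of 32.9 and Rfx5, a factor bound at class II promoters, 3.23.

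Outside the members, the 5 genes whose strain means were most like the summed K and D genes were Sp100 (r = 0.708), Sp110 (r = 0.707), Fcna (r = 0.706), Trim30a (r = 0.68) and Ddx60 (r = 0.673), over 42 strains. For summed class II genes they were the pseudogenes Rps18-ps1 (r = 0.689), Gm19427 (r = 0.543) and Gm5559 (r = 0.512), Gpank1 on chromosome 17 (r = 0.554) and Styk1 (r = 0.49).

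Single strains stood out by how many members they moved. Over all 1170 pairs of a tested member and a strain, 222 were called higher and 219 lower (18.7%) than the mean of the other 38 strains (limma, adjusted over all strains and genes), against 7.73% and 7.07% of all strain-gene pairs. CC006 had 16 of 30 members called higher and 3 lower, where 6.71% of all genes were called higher in that strain. Its calls took in Psmb8, Psmb9, Psmb10, Tap1, B2m and Nlrc5 as well as H2-D1, H2-Q4 and H2-T10. Without replicate 2 of CC006, whose B2m was 797 against 571 in replicate 1, 4 members were called higher. CC030 had 15 higher (16.9% of all genes), among them Tapbp, Tap2, Psmb8, H2-D1 and H2-M3; without its replicate 2 there were 8. CC037 had 15 higher (6.36% of all genes), of which 12 were H2 genes, with H2-K1, H2-DMb1, H2-Ab1, H2-D1 and H2-T22 all among them. The count in CC037 was 8 with deposited TPM and no scaling, where its libraries lie 0.297 lower on the log2 scale relative to the median strain. CC038 had 14 higher (16.1% of all genes), among them Psmb8, Psmb9, Tap2, Tapbp, H2-K1 and H2-D1. CC055 had 14 higher (10.8% of all genes), and 8 without its replicate 2; H2-D1 was not among them. By interferon score these strains ranked 2nd (CC006), 4th (CC030), 6th (CC055), 7th (CC037) and 18th (CC038) of 42, and by macrophage score 9th, 1st, 2nd, 36th and 15th. Their part in these counts was not tested.

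The strains with most members called lower were CC025, CC041, CC043 and CC005. CC025 had 18 of 30 lower and 4 higher, where 12.2% of all genes were called lower. Its calls took in all 3 immunoproteasome subunits, Tap1, Tap2, Tapbp, B2m, Nlrc5, Cd74, H2-K1 and H2-T22. CC041 had 15 lower (11.7% of all genes), with Psmb8, Psmb9, Psmb10, Tap1, Tap2, Tapbp and H2-M3, and 4 higher. CC043 had 12 lower (14.3% of all genes), with B2m, H2-K1, H2-D1, H2-T22 and H2-T23, and 6 without its replicate 1. CC005 had 11 lower (7.87% of all genes), with H2-K1, H2-DMb1, H2-Ab1 and H2-Q7, and 7 without its replicate 2. By interferon score CC025 ranked 36th, CC041 40th, CC043 42nd and CC005 31st of 42 from the highest, and by macrophage score 32nd, 42nd, 26th and 41st. The part of both scores in these counts was not tested.

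In CC051, CC044 and CC041 the libraries disagreed over many members. Those of CC051 differed by more than 1 on the log2 scale in 11 of 30 members (36.7%, against 12.3% of all genes): Psmb8 stood at 23.0 and 5.34 scaled TPM, Tapbp at 86.4 and 30.1 and H2-K1 at 150 and 75.1. Those of CC044 differed so in 5 members (16.7%, against 1.33% of all genes), all of them H2 genes: H2-T22 stood at 13.3 and 1.69, H2-Ab1 at 1.93 and 0.117, H2-DMb1 at 4.14 and 1.13 and H2-K1 at 102 and 47.6. B2m (683 and 521), Psmb8 (13.1 and 9.64) and H2-D1 (126.5 and 97.5) differed less between the same CC044 libraries. The 4 libraries of CC041 spread by more than 1 in 9 of 30 members (against 12.7% of all genes), Tapbp among them (13.7 to 33.4). Without CC051, 225 pairs of a member and a strain were called lower, and without CC044 228 were called higher and 217 lower. Over all genes 46595 pairs were called lower without CC051, and 46135 higher and 42104 lower without CC044.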

How the data were processed

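RNA of cultured osteoblasts was sequenced from stranded total RNA libraries made from 200 ng after removal of ribosomal RNA, holding RNAs over 200 nt, per the labels' protocols. The authors deposited 1 table of TPM per transcript; Bowtie and the mouse build mm9 are named in the submitters' processing notes, and no program for the quantification is named in the labels. Reads were thus assigned to 1 reference, and how reads of strain-specific H2 alleles were treated was not examined. TPM keeps no read depth, so precision rests on the libraries per strain.

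Of 94545 transcripts, 91225 matched GENCODE vM21 (GRCm38) by name and were summed over 37945 genes. They held 98.2% of TPM in the median library. No coordinate of the files was used. Each library was divided by a trimmed mean of log ratios factor (0.772 to 1.27). Genes with 0.5 TPM or more in at least 2 of 95 libraries were tested (15760) on log2(scaled TPM + 0.5) with limma 3.58.1 in R 4.3.3, with a variance trend. A fold change on this scale understates the change of low genes. An F test compared 92 libraries of the 39 replicated strains, and each strain was set against the unweighted mean of the other 38, with Benjamini-Hochberg adjustment at 0.05. Fold ranges between strains come from this fit. For 1 sample of CC030 sequenced 2 times, the mean of both runs was used; between these runs the tested members differed by at most 0.402 on the log2 scale. The fit was tested on simulated data.

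Strains were taken from the labels and replicate numbers given in accession order. The members and gene lists were chosen with earlier results of these data known. Strains named are those with the highest and lowest replicated mean on the log2 scale and those with the most calls, and genes most like the class sums were ranked by Pearson's r. List scores are z-scores of each tested list gene over libraries, averaged over the genes and then over the libraries of a strain. Steps between strains are the widest gap between ordered strain means, described for the 6 members with a share of variance between strains over 0.9. Alternatives covered the pseudocount, filter, scaling, variance trend, each run of CC030, sets by title number and each library left out; leaving out CC030, CC041, CC044 or CC051 was chosen after seeing the data. Shared sequence was counted in words of 50 bases of GENCODE transcripts. Promoters are RefSeq windows, and motifs were searched on both strands.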

Additional observations from a re-analysis of the deposited data

Results flagged for a closer look

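In the 6 strains with 4 libraries, 15 of 180 groups of a member and a strain (8.33%) had 1 library far from the other 3, where chance gives about 1 in 20. Values are scaled TPM, and no explanation is weighed. In CC008, Tapbp was 26.7 in replicate 2 against 42.1 to 44.6 in the others, Psmb8 was 7.75 in the same library against 14.0 to 14.3, and H2-Aa was 0.222 in replicate 1 against 0.0593 to 0.0731. In CC004, replicate 1 had H2-Q10 at 0.545 against 1.33 to 1.34, H2-Q5 at 0.0336 against 0.0654 to 0.0665 and H2-Q2 at 0.0337 against 0. Replicate 2 of CC004 had H2-T23 at 20.03 against 14.2 to 14.6, replicate 3 had H2-T22 at 10.1 against 12.3 to 12.8, and replicate 4 had H2-DMb1 at 9.77 against 8.16 to 8.30. In CC025, replicate 3 had H2-Q10 at 0.981 against 0.537 to 0.594 and Tap2 at 5.04 against 6.03 to 6.20, and replicate 4 had H2-K2 at 0.0444 against 0. In CC041, Psmb8 was 7.76 in replicate 3 against 2.72 to 3.14, and Nlrc5 was 0.267 in replicate 4 against 0.132 to 0.149. In CC038, H2-K1 was 96.0 in replicate 4 against 107 to 109.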

How the results depend on the processing

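The count of members that differed between strains (30) was 30 in each of 92 fits that left out 1 library, 37 of 48 with no filter on low values and 21 of 21 with a filter at a mean of 1 TPM. Of all genes, 14896 of 27523 passed with no filter and 10246 of 11931 with a filter at a mean of 1 TPM. In 20 strains with title numbers 20 or more apart 26 of 30 members passed, and 6513 of all 15760 genes. In 19 strains with numbers within 5 it was 28 of 30 members and 13316 of all 15760 genes. The fits on fewer strains lost H2-Ke6, H2-DMa, Tap1 and H2-Q5 (far apart; limma adjusted p 0.0546, 0.0543, 0.134 and 0.242) and Tap2 and H2-Bl (close; limma adjusted p 0.105 and 0.083). The median share of variance between strains was 0.606 with no filter, 0.615 with numbers far apart, 0.828 with close numbers and 0.706 to 0.763 without 1 library. For all genes it was 0.286 with no filter, 0.355 with numbers far apart and 0.696 with close numbers. Pairs called higher and lower were 59 and 68 with numbers far apart, 137 and 140 with close numbers, fits that hold fewer strains. Over all 15760 genes these counts were 10662 and 9119 with numbers far apart, and 42043 and 41189 with close numbers. Without 1 library, 215 to 246 pairs were called higher. With numbers far apart, members called higher were 8 in CC006, 7 in CC030 and 2 in CC038, and called lower 7 in CC025 and 8 in CC041. In deposited TPM, CC037 had 8 called higher. Counts of all genes in single strains were not taken for these fits or for those without 1 library, so the change in members cannot be set against them. Without 1 library of the strain, the counts ran from 4 to 15 in CC006, 8 to 12 in CC030, 10 to 11 in CC037, 10 to 14 in CC038, 8 to 11 in CC055, 7 to 9 in CC005, 13 to 15 in CC025, 11 to 14 in CC041 and 6 to 12 in CC043; a lone library was taken to vary like the other strains. In deposited TPM 10 members had another highest strain and 8 another lowest. The cause of these changes was not tested. Depth is unknown, which limits what can be said of genes near 0. No paired analysis was possible because the labels give no replicate numbers.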
